A study of Mus musculus with 136 samples.

Results

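The genes described here encode the fibroblast growth factors (FGFs), their receptors and the genes that FGF signaling induces to restrain or relay it. They were selected by symbol from the count table and comprised 36 of its 47643 genes. These were 22 genes grouped as ligands (the Fgf genes followed by a number) and 5 receptor genes (Fgfr1 to Fgfr4 and Fgfrl1). Fgf11 to Fgf14 in the ligand group encode intracellular members of the family. The others were 3 Sprouty genes (Spry1, Spry2 and Spry4), 3 Spred genes (Spred1 to Spred3) and the induced genes Dusp6, Etv4 and Etv5. Of the 36 members, 35 had at least 1 count in the libraries compared, and Fgf22 had none.

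Most FGFs are secreted proteins that bind, together with heparan sulfate, to receptor tyrosine kinases on the cell surface. The activated receptors signal through Ras and the kinases Raf, Mek and Erk. The pathway switches on its own inhibitors: Sprouty and Spred proteins act on Ras and Raf, and Dusp6 removes phosphate from Erk, while the ETS factors Etv4 and Etv5 carry the signal to the genome. In embryos at early somite stages, FGF signaling is known for its place in gastrulation, in the growing tail bud and presomitic mesoderm, in the heart fields and at the midbrain-hindbrain boundary. The visceral yolk sac surrounds the embryo and consists of visceral endoderm and a mesoderm that forms blood and vessels.

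RNA came from the embryo proper and from its visceral yolk sac, with 1 library each, for 66 nonobese diabetic (NOD) mouse concepti at gestation day 8.5. Diabetes arises spontaneously in females of this strain, both groups of dams were of the same strain, diabetic dams were mated to normoglycemic NOD males, and maternal blood glucose in the labels was 423 to 595 mg/dl in diabetic dams (for 1 litter only given as above the scale) and 105 to 164 mg/dl in normal dams. At the 5–6 somite stages, 17 concepti from 9 diabetic litters and 17 from 10 normal litters were compared, and at the 7–9 somite stages 16 concepti from 6 diabetic litters and 16 from 7 normal litters, of which the diabetic litter D24M15 gave 7. Littermates share a dam, and the tests over libraries take them as independent. Total counts per library ranged from 1017901 to 5658850 with a median of 2302819.

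The labelled tissues were checked by marker genes. The summed level of 10 visceral endoderm genes was 96.3 to 3362 normalized counts in embryos and 10370 to 53510 in yolk sacs, and that of 6 genes of the neural plate and neural tube was 663 to 1689 in embryos and 3.17 to 67.0 in yolk sacs. Some other lists overlapped between tissues. The sum of 5 cardiac genes was 137 to 2911 in embryos and 31.3 to 1371 in yolk sacs. Sums of 5 trophoblast genes in yolk sacs ranged from 0 to 1216. Their medians at the 5–6 somite stages were 127 in diabetic and 35.2 in normal pregnancies. Sums of 4 maternal decidua genes in yolk sacs ranged from 37.3 to 830. In embryos the trophoblast sums ranged from 21.7 to 108 and the decidua sums from 63.0 to 166. The highest medians in these lists were those of Tfap2c (59.9 in embryos, 17.1 in yolk sacs) and Hand2 (95.1 and 43.3). Such sums, present in embryos as well, were not taken as a measure of trophoblast or decidua. The part of other tissue in the levels of the members was not tested. A few libraries stood apart from the rest of their group. On the first principal component of its group, the embryo of the diabetic conceptus D28M36C at the later stage lay 3.76 scaled median absolute deviations from the median, and 96 of 8859 genes in it were under an eighth of the group median, against 35 in the next library. The yolk sac of the same conceptus lay 9.56 such deviations away, and the yolk sacs N28M07H and D28M31N lay 4.09 and 3.53 away. The comparisons were refitted without these libraries, apart from the interaction of tissue and stage, and where the call of a member tested in both fits changed, its value without them is given beside the result. Among yolk sacs of the 5–6 somite stages, D28M02G had 87 and N28M06A 57 of 8599 genes under an eighth of the group median. They were not among the libraries left out, which were chosen by the principal component alone. In bulk tissue, fewer cells of a type and less RNA per cell cannot be told apart.

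Levels are compared first between tissues and stages, as normalized counts, which here are counts divided by DESeq2 size factors over all libraries. QuantSeq reads 1 tag at the 3′ end of each transcript, so the counts were not divided by gene length. Among the 36 members, the highest means in embryos of the 5–6 somite stages belonged to Fgfr1 with 423 ± 87.8 normalized counts (SD, n = 34), Spred1 with 336 ± 35.1 and Dusp6 with 333 ± 111. Among the genes grouped as ligands, Fgf15 with 186 and Fgf8 with 128 had the highest means in embryos, followed by Fgf3 with 37.3, Fgf13 with 27.4 and Fgf10 with 26.8. In yolk sacs at the same stage, Dusp6 had 219 ± 135, Fgfr1 150 ± 23.8 and Fgfr3 117, and no ligand had a mean above that of Fgf15, 22.9.

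Yolk sac and embryo were compared with edgeR's quasi-likelihood test, with p-values adjusted over all genes by the Benjamini-Hochberg method. After the filter on low counts, 20 members were tested at each stage. At the 5–6 somite stages, 16 of them were lower and 3 higher in the yolk sac, where 39.7% of all genes tested were lower and 39.3% higher. At the 7–9 somite stages, 15 were lower and 3 higher, against 42.6% and 38.6% of all genes. The median log2 fold change of the tested members was −1.15 and −1.19 at these stages. A member could pass the filter through 1 tissue where it was high. Fgf8 passed through embryos (8550 counts, against 62 in yolk sacs) and Fgfr4 through yolk sacs (1860, against 256 in embryos). The counts of calls and the medians include such members.

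**Figure D1:**
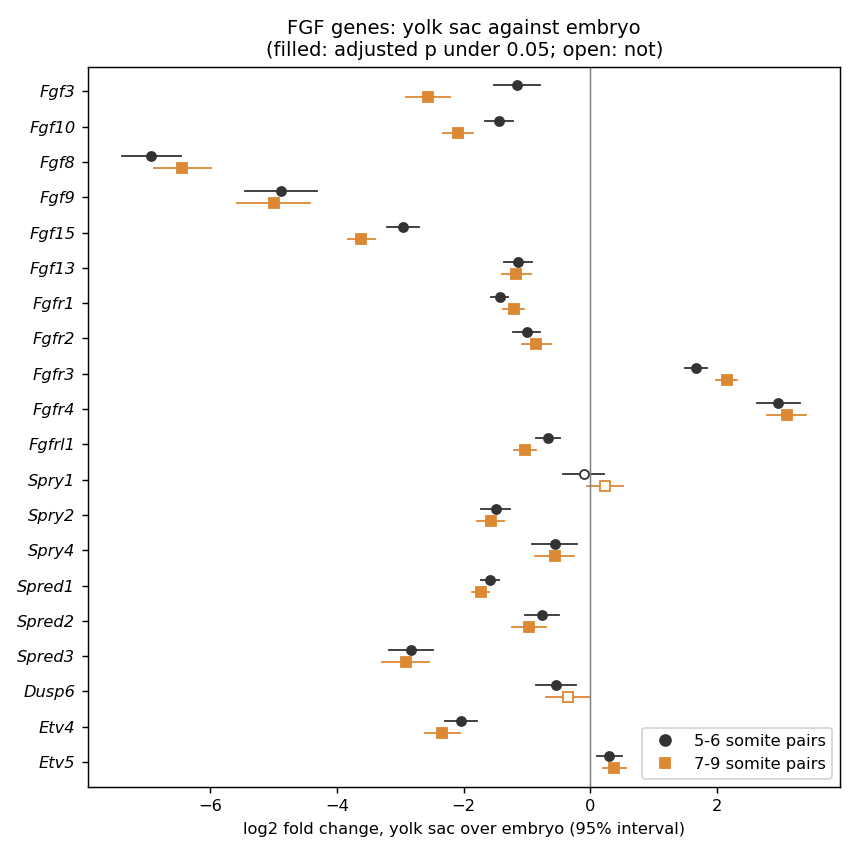
Log2 fold change (yolk sac over embryo, horizontal axis) of the 20 members tested at the 5–6 and the 7–9 somite stages, with 95% intervals from edgeR. Filled points had an adjusted p under 0.05. Fgf8 lay furthest to the left at −6.93 and −6.44, and only Fgfr4, Fgfr3 and Etv5 had filled points to the right of 0.

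Fgf8 (ENSMUSG00000025219; GRCm38 chromosome 19, 45736798 to 45742915) encodes a ligand made in the tail bud, the heart field and the midbrain-hindbrain boundary. Its level in embryos was 15.6 at the lowest, 126 at the median and 260 normalized counts at the highest at the earlier stages (5–6 somite pairs), and 12.5, 96.2 and 161 at the later ones. In yolk sacs Fgf8 had no count in 17 of 34 and 15 of 32 libraries, and no yolk sac reached the level of any embryo. The fitted level was 122-fold lower in yolk sacs at the earlier stage (log2 fold change −6.93) and 86.7-fold lower at the later stage (−6.44). The yolk sac mean of Fgf8 was 0.674% and 0.986% of that in embryos, while the summed neural markers in yolk sacs were at 1.85% and 0.968% and the presomitic markers at 8.93% and 8.37% of their embryo level. The part of embryonic cells in these values was not tested. The related ligands Fgf17 and Fgf18, and Fgf4 and Fgf9 of other subfamilies, were likewise low in yolk sacs, with means under 0.5 normalized counts, against embryo means from 2.38 for Fgf18 to 15.4 for Fgf9. Of these, Fgf9, which acts in mesoderm and epithelia, passed the filter through its counts in embryos (884, against 17 in yolk sacs). Its fitted level was lower in yolk sacs, with log2 fold changes of −4.88 and −4.99.

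The ligand genes Fgf3, Fgf4 and Fgf15 lie next to each other on the + strand of chromosome 7, at 144838083 to 144844436, 144847367 to 144865243 and 144896531 to 144900953. Fgf15, a hormone-like FGF that early embryos make in the neural tube, had 66.5 to 253 normalized counts in embryos at the 5–6 somite stages and 9.81 to 47.7 in yolk sacs. The groups did not overlap, and the fold change was 7.74-fold lower in yolk sacs. At the 7–9 somite stages Fgf15 ranged from 92.7 to 210 in embryos and from 0 to 24.5 in yolk sacs, a 12.2-fold difference. Fgf3, known from hindbrain and inner ear development, ranged from 24 to 62.5 in embryos and from 1.25 to 49.1 in yolk sacs at the 5–6 somite stages, so that the tissues overlapped. At the 7–9 somite stages, embryos had 17.6 to 70.8 and yolk sacs 0 to 16.8 normalized counts of Fgf3, and the tissues no longer overlapped. Fgf3 was lower in yolk sacs by 2.23-fold at the earlier and by 5.91-fold at the later stage. Fgf4, between them on the chromosome, had 421 counts over all embryos and 5 over all yolk sacs. Counts of Fgf3 and Fgf15 in yolk sacs were at 43.6% and 12.3% of the embryo level at the earlier stage, against 14.5% for the summed hindbrain markers. Fgf10, which signals from mesoderm to epithelia, was lower in yolk sacs (log2 fold changes −1.44 and −2.09), as was the intracellular family member Fgf13 (−1.14 and −1.17).

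Fgf1 had more counts in yolk sacs than in embryos, 447 against 62. It did not pass the filter, and its mean was 0.762 and 0.929 normalized counts in embryos against 4.81 and 9.13 in yolk sacs. The yolk sac exceeded the embryo of the same conceptus in 32 of 34 concepti at the earlier and in 32 of 32 at the later stage. In the edgeR fit without a filter, Fgf1 was higher in yolk sacs by 2.52 (adjusted p = 1.85e-11) and 3.22 (9.07e-21) on the log2 scale. That fit called 8 of the 14 members below the filter at the earlier stage and 9 at the later stage, and Fgf1 was the single one of them that was higher in yolk sacs. Fgf14 and Fgf16 had 201 and 81 counts in embryos and none in yolk sacs, where a count of 0 allows up to 3 counts over all libraries. Such a limit covers counting error only. Fgf2 and Fgf11 had similar totals in both tissues (254 and 210 counts, 102 and 109 counts). Fgf20, Fgf21 and Fgf23 had 3, 1 and 2 counts over all libraries, and Fgf5, Fgf6, Fgf7 and Fgf12 had means of at most 2.03 normalized counts in a tissue and stage.

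Among the receptors the tissues differed in direction. Fgfr1 (ENSMUSG00000031565; chromosome 8, 25513654 to 25575718), the main FGF receptor of mesoderm, ranged from 249 to 597 normalized counts in embryos and from 92.0 to 196 in yolk sacs at the 5–6 somite stages. At the 7–9 somite stages it ranged from 215 to 434 in embryos and from 62.3 to 211 in yolk sacs. The tissues did not overlap at either stage, with log2 fold changes of −1.43 and −1.21. Lower levels in yolk sacs were also called for Fgfr2 (log2 fold changes −1.01 and −0.85) and for Fgfrl1, a receptor-like gene without a kinase domain (−0.67 and −1.03). Fgfr3 (ENSMUSG00000054252; chromosome 5, 33721674 to 33737068) showed the opposite direction, with 16.6, 38.5 and 56.0 normalized counts at the lowest, median and highest in embryos and 58.7, 117 and 173 in yolk sacs at the 5–6 somite stages. At the 7–9 somite stages Fgfr3 had 10.6, 30.1 and 46.4 in embryos, and 78.4, 125 and 185 in the yolk sac libraries. Every yolk sac lay above every embryo of its stage, by 3.17-fold and 4.45-fold in the fit. Fgfr4 (ENSMUSG00000005320; chromosome 13, 55152640 to 55168759) had a median of 2.77 and a highest value of 11.4 normalized counts in embryos at the 5–6 somite stages, below the lowest yolk sac at 12.2. It was 7.81-fold and 8.56-fold higher in yolk sacs. The embryo mean of Fgfr4 was 12.6% and 11.5% of that in yolk sacs and the embryo mean of Fgfr3 32.6% and 22.5%, while the summed visceral endoderm markers in embryos were at 3.38% and 2.35% of their yolk sac level.

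Fgfr3 and Fgfr4 were the receptors higher in yolk sacs, and their promoter windows are therefore shown, from RefSeq on GRCm38.p6, 250 bases before to 50 after an annotated start, 5′ to 3′ on the + strand. The Fgfr3 window is chr5:33721474-33721773 and belongs to the first of its annotated starts, and the Fgfr4 window is chr13:55152568-55152867. Capitals mark the GC box, searched as GGGCGG and its reverse complement CCGCCC.
Fgfr3: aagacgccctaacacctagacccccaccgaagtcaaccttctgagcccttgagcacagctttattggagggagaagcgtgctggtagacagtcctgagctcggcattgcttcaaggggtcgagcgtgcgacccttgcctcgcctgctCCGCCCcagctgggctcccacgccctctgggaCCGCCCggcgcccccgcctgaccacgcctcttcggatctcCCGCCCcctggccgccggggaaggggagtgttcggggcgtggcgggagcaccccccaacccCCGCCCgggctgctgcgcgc
Fgfr4: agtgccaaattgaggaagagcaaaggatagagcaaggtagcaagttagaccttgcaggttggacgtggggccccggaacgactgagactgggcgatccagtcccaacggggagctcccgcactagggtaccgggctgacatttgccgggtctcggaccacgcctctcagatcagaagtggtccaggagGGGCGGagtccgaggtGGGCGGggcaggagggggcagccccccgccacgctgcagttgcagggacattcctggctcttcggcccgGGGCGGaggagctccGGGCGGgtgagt
Each of these windows held 4 GC boxes, while a second Fgfr3 window held 2. The window of Fgfrl1, a receptor gene lower in yolk sacs, and 2 windows of Fgf13, also lower there, held 4 as well. Of all 32851 promoter windows of this length, 35.7% held at least 1 GC box and 5.49% at least 4. The ETS core CCGGAA, the letters recognized by factors such as Etv4 and Etv5, was in 5 of the 35 windows found for 27 members, including that of Fgfr4, and in 14.9% of all windows. These matches describe the letters of the windows, and binding was not measured.

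The feedback genes were, with few exceptions, lower in yolk sacs as well. Spred1 (chromosome 2, 117121374 to 117182279), an inhibitor of Ras activation, ranged from 291 to 450 normalized counts in embryos and from 56.4 to 170 in yolk sacs at the 5–6 somite stages, and the tissues did not overlap at either stage. Its log2 fold change was −1.59 and −1.73, that of Spred3 −2.83 and −2.91 and that of Spred2 −0.76 and −0.97. Of the Sprouty genes, Spry2 (log2 fold changes −1.50 and −1.57) and Spry4 (−0.56 and −0.57) were lower in yolk sacs. Spry1 was the tested member without a call at either stage, with log2 fold changes of −0.11 (adjusted p = 0.548) and 0.24 (0.123), and the yolk sac exceeded the embryo in 12 of 34 and 20 of 32 concepti. Without the libraries that stood apart, the later difference of Spry1 was 0.31 and passed (adjusted p = 0.0304). The ETS genes split. Etv4 was lower in yolk sacs (log2 fold changes −2.04 and −2.33), in all 34 concepti of the earlier stage, whereas Etv5 was higher by 0.30 and 0.38, in 23 of 34 and 25 of 32 concepti. Dusp6, an Erk phosphatase induced by FGF signaling, was lower in yolk sacs at the 5–6 somite stages (log2 fold change −0.55), in 28 of 34 concepti, and its value of −0.35 at the 7–9 somite stages missed the threshold (adjusted p = 0.0618) but passed without the libraries that stood apart (−0.34, 0.0458).

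The stages were then compared within each tissue, 7–9 against 5–6 somite pairs, over both maternal conditions. In embryos 20 members were tested, of which 2 were higher at the later stage and 7 lower, against 14.6% and 15.2% of all genes. The 2 were the ligands Fgf9, higher by 0.82 on the log2 scale (adjusted p = 8.34e-05), and Fgf17, a close relative of Fgf8, also by 0.82 (0.00377). The mean level of Fgf9 in embryos was 7.36, 11.8, 14.7, 14.9 and 17 normalized counts with 5, 6, 7, 8 and 9 somite pairs, and its slope was 0.31 per somite pair. Fgf18 did not pass the filter and had 1.91, 3.51, 5.03, 5.66 and 6.97 normalized counts at these somite numbers. In the fit without a filter Fgf18 was higher at the later stage by 1.24 (adjusted p = 5.05e-05), the single call among the 14 members below the filter. The share of all genes called in that fit is not given here. The receptors moved the other way: all 4 that were tested fell, Fgfr1 by 0.38 (adjusted p = 1.73e-05), Fgfr3 by 0.36, Fgfr2 by 0.29 and Fgfrl1 by 0.27. Fgf15 fell by 0.38, Spred1 by 0.28 and Etv5 by 0.25 on the log2 scale in embryos. Among the members that fell, Fgfr1 and Spred1 were called in all 10 alternatives. Fgfr2, Fgfr3, Fgfrl1, Fgf15 and Etv5 were each called in 9 of 10. The downward slope of Fgfr2 on somite number was called in 5 of 10.

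In yolk sacs 17 members were tested, of which 3 were higher and 7 lower at the later stage, against 21.7% and 18.3% of all genes. Among the ligands, Fgf3 fell by 1.28, Fgf15 by 1.0 and Fgf10 by 0.41 on the log2 scale. Fgf3 had 19.5, 8.71, 8.02, 6.53 and 3.50 normalized counts in yolk sacs with 5 to 9 somite pairs, against 34.6, 44.0, 46.4, 38.4 and 33.0 in embryos. Its level thus dropped most between 5 and 6 somite pairs. Cell type markers moved with stage in yolk sacs as well. Of 10 visceral endoderm genes 8 were higher and 1 lower (median 0.59), and 4 of 5 primitive erythroid genes were higher (0.80). Of 5 endothelial genes 2 were higher and 1 lower, and of 3 maternal decidua genes tested 1 was higher. The only neural marker that passed the filter, Sox2, was lower (−1.53). Also lower were the only trophoblast marker (−1.56) and the only presomitic marker (−0.28) that passed, and 1 of 3 cardiac markers. The only hindbrain marker that passed the filter was not called (−0.41). The summed neural markers in yolk sacs were at 1.85% of their embryo level at the earlier and at 0.968% at the later stage, and the part of these cells in the values of Fgf3, Fgf15 and the other members was not tested. The other members that fell were Fgfrl1 by 0.59, Etv4 by 0.45, Spry4 by 0.43 and Spred1 by 0.37. The 3 that rose in yolk sacs were Spry1 by 0.65, Dusp6 by 0.51 and Fgfr4 by 0.28 (adjusted p = 0.0225). After removal of GC and length trends in each library, the changes of Fgfr4 (0.16, adjusted p = 0.177) and Fgf10 (−0.34, 0.0517) no longer passed. Without the libraries that stood apart, Fgf3 (−1.27) and Fgf15 (−1.02) passed and Spry4 did not, in the stage comparison (−0.38, adjusted p = 0.0509) or in the trend on somite number (−0.12, 0.0679). In yolk sacs of normal pregnancies alone 1 member was called, Fgf15 (−0.79, adjusted p = 0.0289). Without a filter, Fgf1 was higher at the later stage by 0.88 (adjusted p = 0.00203). Regression on somite number called 2 members upward and 7 downward in each tissue, where 25.3% of all genes in embryos and 38.8% in yolk sacs were called in either direction. The downward slope of Spry4 in embryos, −0.20 per somite pair, was 0.02 (adjusted p = 0.895) in embryos of normal pregnancies alone.

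**Figure D2:**
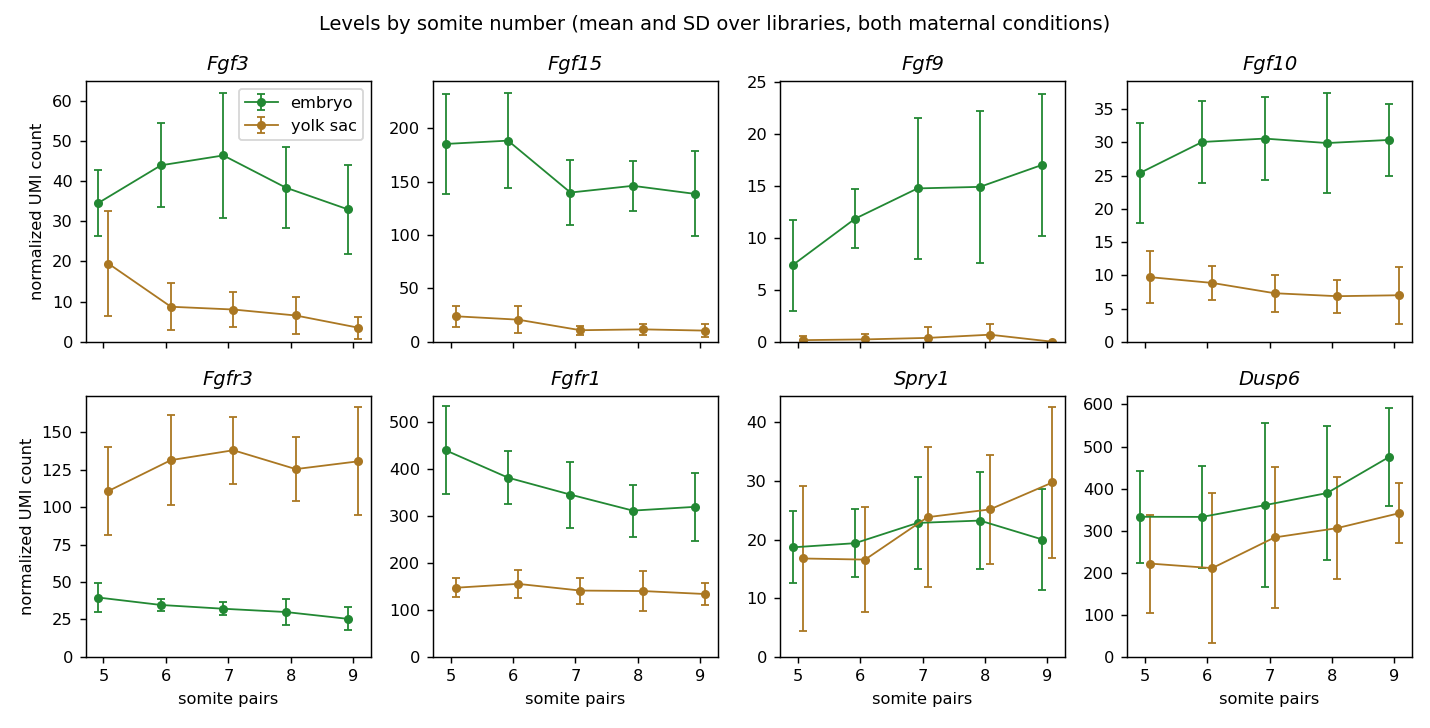
Normalized counts on the common scale (vertical axis, mean with SD bars) against the number of somite pairs (horizontal axis) in embryos and yolk sacs for Fgf3, Fgf15, Fgf9, Fgf10, Fgfr3, Fgfr1, Spry1 and Dusp6. Fgf3 in yolk sacs declined from 19.5 at 5 to 3.50 at 9 somite pairs, and Fgf9 in embryos rose from 7.36 to 17.

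Whether the tissue difference itself changed with stage was tested as an interaction over all libraries. This covered 21 members, of which 4 were called, against 3.09% of all genes. For Fgf3 the log2 difference between yolk sac and embryo changed by −1.36 from the earlier to the later stage (95% interval −1.87 to −0.84, adjusted p = 0.000471). It changed by −0.61 for Fgf15 (adjusted p = 0.0260) and by −0.59 for Fgf10 (0.0231). For Fgfr3 the tissue difference changed by 0.54 (adjusted p = 0.00349): its mean fell in embryos from 38.1 to 29.5 normalized counts and was 117 and 131 in yolk sacs. Each of these 4 was called in all 4 alternatives run for this comparison.

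The effect of maternal diabetes was examined separately for each tissue and stage, and levels in this comparison are normalized counts with size factors over the libraries of 1 tissue and stage. At the 5–6 somite stages, 19 members were tested in embryos and 1, Spry4, was higher in diabetic pregnancies, where 1.46% of all genes tested were called in either direction. The members' median log2 fold change was −0.01, against 0.00 for all genes. At the later stage, 19 members were tested in embryos and 1, Fgfr1, was lower, against 9.09% of all genes called in either direction. Here 15 of the 19 members had a log2 fold change below 0, and their median was −0.12, against −0.01 for all genes. Libraries of these embryos also differed in their trend on transcript length. The slope per doubling of length was −0.236 to 0.075 (median −0.030) in diabetic and −0.169 to 0.126 (0.074) in normal pregnancies, in log2 units. The part of this trend in the members' median was not tested. In yolk sacs no member was called at either stage by edgeR, of 16 and 15 tested, and 0% and 0.0194% of all genes were called. DESeq2 called none either, and an unadjusted p under 0.05 was found for 2 members at each stage. At the 5–6 somite stages, 14 of the 16 members tested in yolk sacs had a log2 fold change above 0, with a median of 0.16. The median half-width of the members' 95% intervals in these 4 comparisons in log2 units was 0.270 and 0.299 for embryos, then 0.355 and 0.336 for yolk sacs, so that smaller differences could not be resolved for a typical member.

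**Figure D3:**
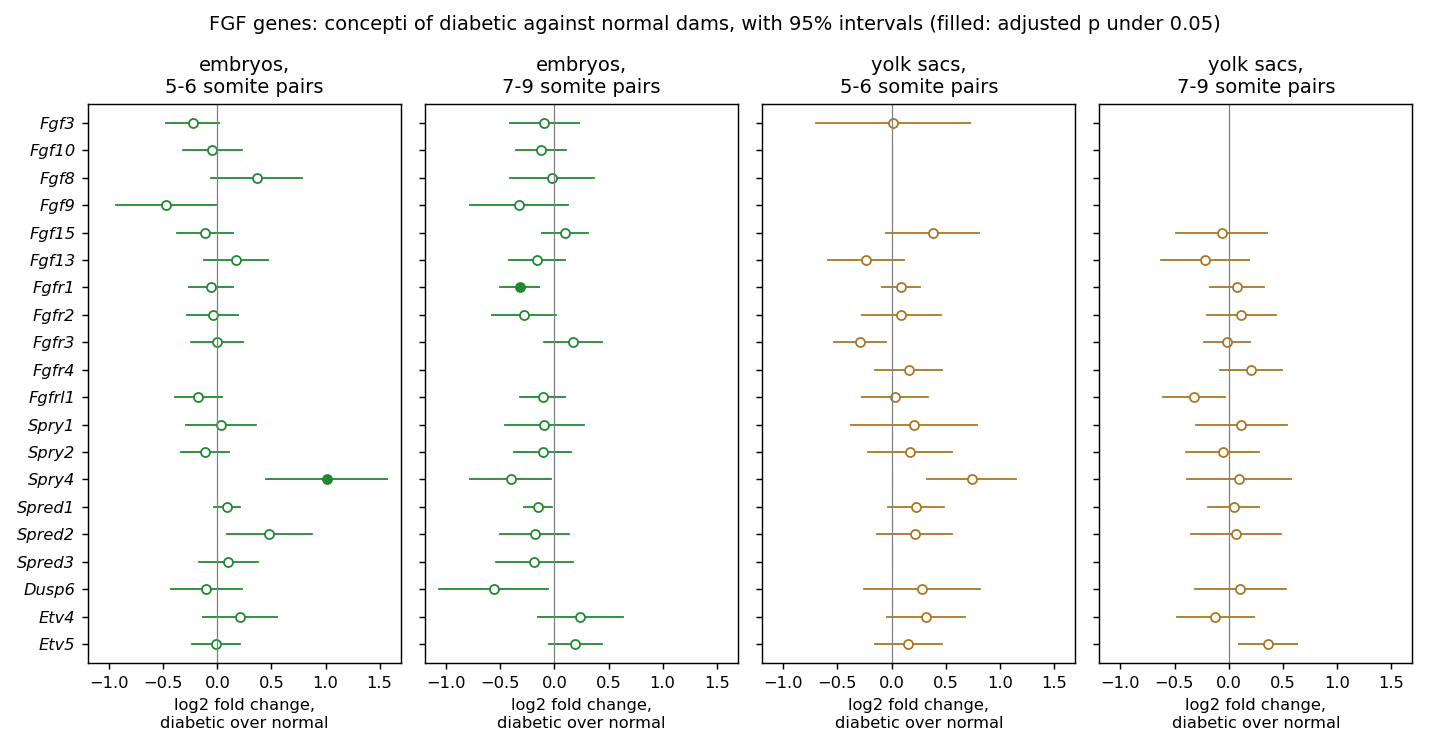
Log2 fold change (diabetic over normal, horizontal axis) of the members tested in each tissue and stage, with 95% intervals from edgeR. Filled points had an adjusted p under 0.05: in embryos, Spry4 at the 5–6 (1.01) and Fgfr1 at the 7–9 somite stages (−0.32).

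Spry4 (ENSMUSG00000024427; chromosome 18, 38586247 to 38601415, − strand) encodes a Sprouty protein that restrains receptor tyrosine kinase signaling. At the 5–6 somite stages its lowest, median and highest levels were 4.31, 12.8 and 37 normalized counts in normal embryos and 9.48, 23.8 and 85.8 in those of diabetic pregnancies. The groups overlapped, with 16 of 17 embryos of diabetic pregnancies above the normal median and 4 above every normal embryo. Spry4 was 2.02-fold higher (log2 fold change 1.01 ± 0.28 SE, 95% interval 0.45 to 1.57, adjusted p = 0.0495). The litters differed among themselves: the mean was 47.5 in the diabetic litter D28M53 (4 embryos) and 44.5 in D28M23 (3 embryos), 11.5 to 24.4 in the other diabetic litters, and 5.33 to 37 in normal litters. With the litter as a random block the log2 fold change was 0.89 (adjusted p = 0.212), and with counts summed per litter it was 0.73 (0.430). It also missed the threshold with DESeq2's size factors within edgeR (1.02, adjusted p = 0.0506) and with somite number and sex as covariates (0.93, 0.0665), while DESeq2's own test called it (0.0184). Without D28M53 it was 0.70 (adjusted p = 0.259), without D28M23 0.88 (0.10) and without the normal litter N28M06 0.85 (0.238). In all, 6 of the 19 fits that left out 1 litter kept the call, over values of 0.70 to 1.16. An exact two-sided permutation test of litter means gave a difference of 0.72 with p = 0.0481 (adjusted p = 0.384 over 69 such tests).

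In the yolk sacs of the same stage, Spry4 had 2.01, 8.51 and 15.3 normalized counts at the lowest, median and highest in normal and 7.29, 14.3 and 21.2 in diabetic pregnancies. Of the 17 yolk sacs of diabetic pregnancies, 15 lay above the normal median and 8 above every normal yolk sac. The log2 fold change was 0.74 (95% interval 0.33 to 1.15, adjusted p = 0.359), and no alternative called it, single litters left out included, over values of 0.60 to 0.80. In embryos with 7–9 somite pairs the order was the other way round, with 3.75, 16.4 and 20.7 in normal and 4.12, 10.7 and 21 in diabetic pregnancies, where 15 of 16 embryos lay below the normal median. That difference, −0.40 on the log2 scale, did not pass (adjusted p = 0.151), nor did it without the libraries that stood apart (−0.39, 0.196). The difference between the stages was tested as an interaction in embryos, where Spry4 was the 1 member called of 20 tested, against 8.7% of all genes. The log2 fold change of Spry4 with maternal diabetes changed by −1.40 ± 0.35 SE from the earlier to the later stage (95% interval −2.11 to −0.70, adjusted p = 0.0119). All 5 alternatives, the litter block among them, called it, with values of −1.42 to −1.23. Fits without single litters and with counts summed per litter were not run for this interaction. In yolk sacs the same interaction was −0.64 (adjusted p = 0.855), and none of the 17 members tested there was called, with 0% of all genes.

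Fgfr1 in embryos with 7–9 somite pairs had 238, 352 and 420 normalized counts at the lowest, median and highest in normal and 202, 272 and 386 in diabetic pregnancies. The groups overlapped, with 13 of 16 embryos of diabetic pregnancies below the normal median, 3 below every normal embryo, and 4 normal embryos above every embryo of diabetic pregnancies. The means were 351 ± 49.9 and 281 ± 55.2 (SD, n = 16 each), and the level was 0.80-fold that of normal pregnancies (log2 fold change −0.32 ± 0.09 SE, 95% interval −0.50 to −0.14, adjusted p = 0.0197). Of 10 alternatives, 8 called it, and it was lost with the litter as a random block (−0.34, adjusted p = 0.0548) and when each litter's counts were summed (−0.30, 0.212). Leaving out D28M31 or N28M05 ended the call as well (adjusted p = 0.0545 and 0.0637), while 11 of 13 fits without 1 litter kept it, over values of −0.38 to −0.28. The exact permutation test of litter means gave −0.33 with p = 0.0216 (adjusted p = 0.295). Without the libraries that stood apart the log2 fold change was −0.30 (adjusted p = 0.0308). At the 5–6 somite stages the difference of Fgfr1 in embryos was −0.06 (95% interval −0.26 to 0.14). The other receptors in embryos with 7–9 somite pairs had log2 fold changes of −0.28 for Fgfr2, −0.11 for Fgfrl1 and 0.17 for Fgfr3, none of which passed.

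Dusp6 (ENSMUSG00000019960; chromosome 10, 99263231 to 99267489) had 174, 491 and 639 normalized counts at the lowest, median and highest in normal and 22.4, 339 and 593 in diabetic pregnancies, among embryos of the later stage. There 15 of 16 embryos of diabetic pregnancies lay below the normal median and 4 below every normal embryo, with 22.4, 62.6, 97.0 and 116 normalized counts. The log2 fold change was −0.56 (95% interval −1.06 to −0.06), and it did not pass after adjustment (p = 0.0287, adjusted p = 0.136 by edgeR). The lowest value belongs to the embryo D28M36C, and without the libraries that stood apart the log2 fold change was −0.48 (adjusted p = 0.146). The same embryo had 11.8 normalized counts of Fgf8, against a group median of 90.1, and its group's summed presomitic markers ranged from 24.1 to 431, against 201 to 413 in normal embryos. The part of presomitic tissue in the Dusp6 values was not tested. With single litters left out aside, the alternatives for Dusp6 gave values of −0.92 to −0.48, none called. The exact permutation test of litter means gave −0.98 with p = 0.0140 (adjusted p = 0.295). The 5 summed cardiac markers ranged from 1638 to 2911 in embryos of diabetic and from 1098 to 2018 in embryos of normal pregnancies at this stage, and the part of heart tissue in the levels of Dusp6 or Fgfr1 was not tested.

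**Figure D4:**
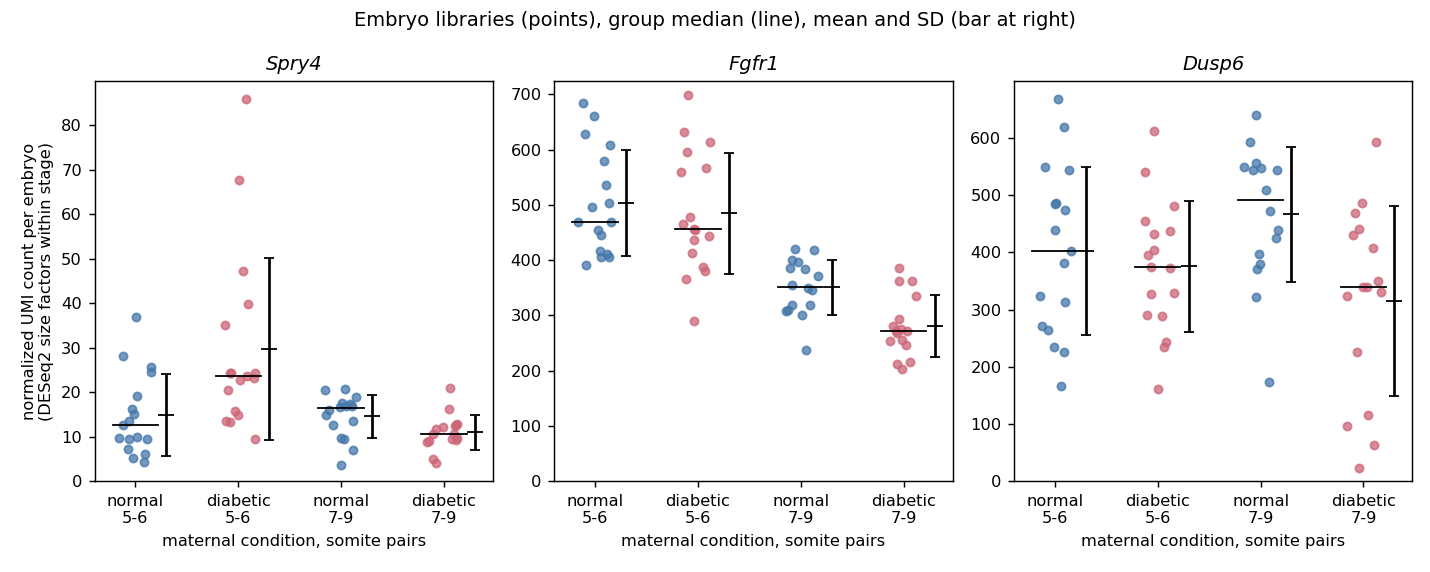
Normalized counts (vertical axis, size factors within a stage) of Spry4, Fgfr1 and Dusp6 in each embryo library, by maternal condition and stage. Points are libraries, lines the group medians and bars the mean ± SD. The medians of Spry4 are 12.8 (normal) and 23.8 (diabetic) at the 5–6 somite stages, and those of Fgfr1 are 352 and 272 and those of Dusp6 491 and 339 at the 7–9 somite stages.

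Several further members had an unadjusted p under 0.05 that did not survive adjustment. In embryos of the earlier stage these were Spred2, whose log2 fold change was 0.48 (p = 0.0171, adjusted p = 0.154 by edgeR), and Fgf9, with −0.47 (p = 0.0468, adjusted p = 0.231). Spred1 in embryos with 7–9 somite pairs had 238, 279 and 336 normalized counts in normal and 191, 248 and 315 in diabetic pregnancies at the lowest, median and highest, and its log2 fold change was −0.15 (p = 0.0232, adjusted p = 0.122). Its value was −0.003 after removal of GC and length trends and −0.23 (adjusted p = 0.0399) without the diabetic litter D24M15. In yolk sacs, Fgfr3 had −0.29 at the 5–6 somite stages (p = 0.0198, adjusted p = 0.551 by edgeR), with 15 of 17 yolk sacs of diabetic pregnancies below the normal median. At the 7–9 somite stages Etv5 had 0.37 (p = 0.00831, adjusted p = 0.340 by edgeR) and Fgfrl1 −0.32 (p = 0.031, adjusted p = 0.408). None of the 69 exact permutation tests of litter means had an adjusted p under 0.05, the lowest being 0.295.

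The ETS genes and the ligand Fgf8 had no call in the comparisons of diabetic with normal pregnancies in which they were tested. In embryos with 7–9 somite pairs the log2 fold changes were 0.24 for Etv4 (95% interval −0.15 to 0.63), 0.19 for Etv5 (−0.05 to 0.44) and −0.02 for Fgf8 (−0.41 to 0.37). The values of Etv4 and Etv5 thus lay above 0 and that of Dusp6 below. Whether the effect of maternal diabetes differed between yolk sac and embryo was tested as an interaction, and none of the 20 members was called by edgeR at either stage, where 0% and 0.389% of all genes were. An unadjusted p under 0.05 was found for 1 member at the 5–6 and 3 at the 7–9 somite stages, and the latter were Fgf9 (2.99, adjusted p = 0.0786), Fgfr1 (0.40, 0.15) and Dusp6 (0.69, 0.275). In yolk sacs with 7–9 somite pairs Fgf9 had counts in 7 of 16 libraries of diabetic and 0 of 16 of normal pregnancies, with 1 to 4 counts each and levels of at most 3.01 normalized counts, and 4 of the 7 came from the litter D24M15.

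Other genes of the pathway were taken from 4 lists with 65 genes in all: 20 genes of the signal relay from receptor to Erk, 11 brakes on it, 25 co-receptors and matrix genes, and 9 nuclear factors. Between diabetic and normal pregnancies, 6 of the 60 tested passed in embryos with 7–9 somite pairs, all lower in diabetic pregnancies. None passed in the other 3 comparisons. Of all 10628 genes tested in embryos with 7–9 somite pairs, 413 were called lower and 553 higher, together 9.09%. Whether the lists differ from all genes was not tested. Values of the listed genes after removal of GC and length trends are not given here. The 6 were Egr1, an immediate early gene of Erk signaling, the ETS factor Elk4 (−0.70, adjusted p = 0.0250), the GTPase Nras (−0.51, 0.0351), the Ras activator Sos1 (−0.41, 0.0355), the FGF receptor antagonist Il17rd (−0.36, 0.0409) and the glypican Gpc6 (−0.32, 0.0464). Egr1 had 21.5, 40.1 and 271 normalized counts at the lowest, median and highest in normal and 3.84, 14.1 and 39.5 in diabetic pregnancies, and its log2 fold change was −2.22 (adjusted p = 0.000381). Without the libraries that stood apart 4 of the 60 passed, and Nras (−0.46, adjusted p = 0.0557) and Sos1 (−0.38, 0.0578) did not. Fits with the litter as a block, with counts summed per litter or without single litters are not given for the 6 genes. Their tests took littermates as independent, and the litter D24M15 gave 7 of the 16 embryos of diabetic pregnancies. The median over the lists was −0.11, against −0.01 for all genes.

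Between the tissues, where 39.3% of all genes were higher and 39.7% lower in yolk sacs at the 5–6 somite stages, 11 of the 19 signal relay genes tested were higher and 2 lower. Of 23 co-receptors and matrix genes 6 were higher and 15 lower, and of 11 brakes 1 was higher and 7 lower. With 38.6% and 42.6% of all genes at the 7–9 somite stages, the relay had 8 higher and 2 lower, the co-receptors and matrix genes 4 and 16, and the brakes 1 and 7. The differences between the lists were not tested. Klb, the co-receptor of hormone-like FGFs, was higher in yolk sacs by 5.29 and 5.49 on the log2 scale at the 2 stages, and Stat3, a transcription factor, by 2.53 and 2.49. The matrix genes Fgfbp3 (−4.55 and −4.32) and Gpc1 (−2.36 and −3.02) and the ETS factor Etv1 (−3.25 and −3.31) were among the lowest. With stage, 9 of the 61 pathway genes tested in embryos rose and 8 fell, near the 14.6% and 15.2% of all genes. In yolk sacs 12 of 59 rose and 17 fell, against 21.7% and 18.3% of all genes. In yolk sacs the highest changes were Egr1 (1.20) and Fos (1.02), both immediate early genes, and the heparan sulfate proteoglycan Gpc1 fell by 0.66.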

How the data were processed

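The authors sequenced QuantSeq 3′ libraries with unique molecular identifiers and deposited counts of molecules per gene for 136 libraries, with no normalization. The submitters' processing notes name STAR, HTSeq and mm10, and versions are not given in the sources used here. The 4 batch-control duplicates were left out. Gene positions are those of GENCODE M21.

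Groups followed the tissue, somite stage and maternal condition in the labels. Genes passed edgeR's filterByExpr (minimum count 10) and were tested with edgeR 4.0.16 (glmQLFit, glmQLFTest, TMM) in R 4.3.3, with Benjamini-Hochberg adjustment over all genes tested and a call at an adjusted p under 0.05. Differences between effects were tested as interaction terms. Normalized counts used size factors of DESeq2 1.42.0. Litter means of log2 normalized counts (pseudocount 1) were compared by exact two-sided permutation over all splits of the litters (92378 and 1716), adjusted over 69 tests, and the smallest p these splits allow is 1.08e-05 and 0.000583. The procedures were tested on simulated counts, drawn as independent libraries with a single dispersion for all genes and without litter effects. The simulation therefore cannot show how shared litters affect the tests.

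The 36 members, the pathway lists and the tests were chosen with earlier results of these data known. Values are given in full for members called in any comparison or averaging 20 normalized counts or more in any group. Of other pathway genes, those called in a diabetes comparison were named, and from the tissue and stage comparisons genes among the 4 with the largest change in each direction.

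Alternatives were DESeq2's Wald test, its size factors within edgeR, no filter, a mean count of at least 10 as the filter, covariates for sex and somite number or for the number that opens the library title (23, 24 or 28), litter as a random block (limma 3.58.1, voom with duplicateCorrelation), counts summed per litter, leaving out each litter, and a single maternal condition for the stage comparisons. Removal of GC and length trends (lowess, span 0.3) and fits without the libraries over 3 scaled median absolute deviations from their group were added after seeing the data. Embryo and yolk sac of 1 conceptus come from the same individual, and the median correlation of their deviations from their group means was 0.139 at the 5–6 somite stages (34 pairs) and 0.0726 at the 7–9 somite stages (32 pairs), so the conceptus was added as a block in an alternative fit of the tissue comparisons.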

Additional observations from a re-analysis of the deposited data

Results flagged for a closer look

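The effect of maternal diabetes on Spry4 in embryos differed with stage: the interaction term was −1.40 (log2), with means of 29.8 (diabetic) and 14.9 (normal) normalized counts at the 5–6 and 11 and 14.6 at the 7–9 somite stages.

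The difference between yolk sac and embryo changed with stage for 4 members by the interaction term: −1.36 for Fgf3, −0.61 for Fgf15, −0.59 for Fgf10 and 0.54 for Fgfr3. For the 3 ligands the yolk sac moved further below the embryo at the 7–9 somite stages, and for Fgfr3 it moved further above.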

How the results depend on the processing

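Of 81 called values of single members, 48 were called in every alternative, single litters left out aside, and 33 were not in at least 1. The single call in embryos of diabetic pregnancies with 5 or 6 somite pairs became 0 calls with DESeq2's size factors within edgeR, with counts summed per litter, with the litter block and with somite number and sex as covariates, and leaving out 1 litter gave 0 to 1. With 7–9 somite pairs the single call became 0 with counts summed per litter and with the litter block and 3 with the title number as a covariate, and leaving out 1 litter gave 0 to 2. The stage-by-diabetes term in embryos had 3 calls with the litter block in place of 1 (Spry4, Spred1 and Dusp6). Within a single maternal condition the groups are smaller: the trend in embryos had 5 calls in diabetic and 3 in normal pregnancies alone in place of 9, and in yolk sacs of normal pregnancies alone the trend had 1 in place of 9 and the stage comparison 1 in place of 10. The trend of Spry4 in embryos turned from −0.20 to 0.025 in normal pregnancies alone. The cause of these changes was not tested. Without the libraries that stood apart, counts of calls were within 1.5 times those with them in the 10 comparisons refitted.

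With the conceptus as a block, which pairs embryo and yolk sac, 19 members were called between tissues at the 5–6 and 18 at the 7–9 somite stages, 4 for tissue by stage and 0 for tissue by diabetes at either stage, as without it. Diabetic and normal concepti share no dam and could not be paired.

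Members with a few counts per library could not be tested with the filter. The litter is the unit that maternal condition varies over, and 6 against 7 litters at the later stage limit every comparison by diabetes. In 2 concepti the sex labels of embryo and yolk sac differ.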
